A study of Mus musculus with 6 samples.

Results

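The Ly6 surface proteins were examined in the heart of mice with chronic kidney disease (CKD) through the 8 listed genes Ly6a, Ly6c1, Ly6c2, Ly6d, Ly6e, Ly6g, Ly6h and Ly6k, of which 6 had a named probe set among 19505 named genes. Ly6a and Ly6g are not analysed here. The genes were chosen by family name and with the CKD and sham levels of these same arrays known, so their own differences are given as a description. Where a Ly6 gene is said to be past a criterion, or has a confidence interval, this is its place in the fit across all genes and is not read as evidence about the family. Total RNA of 3 sham and 3 CKD hearts was read on Clariom S mouse arrays of Affymetrix, 1 array per mouse, after cDNA made from 250 ng of RNA had been labelled with biotin. Both groups were Balb/c mice kept free of specific pathogens, and the methods describe Balb/c males of 8 weeks at surgery. The 5/6 nephrectomy CKD mice had part of the right renal cortex destroyed by electrocoagulation and lost the left kidney 2 weeks later, whereas sham mice had a laparotomy that spared the kidneys. The methods list sham and CKD Balb/c mice on a normal diet for 8 weeks, and longer sets with groups on a high phosphate diet. The sources used here do not name the set from which the array hearts came. Balb/c mice carry another Ly6 haplotype than C57BL/6J, the strain of the reference sequences, and Clariom probes on these genes may therefore not bind alike in both strains.

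Ly6 proteins are small, folded by disulphide bonds into a three-finger shape called the LU domain, and most are tied to the outer cell membrane by a glycosylphosphatidylinositol (GPI) anchor. In the mouse most of their genes lie side by side on chromosome 15. They are best known as surface markers: Ly6c2 of inflammatory monocytes, Ly6g of neutrophils, Ly6c1 of vessel lining, and Ly6a, also called Sca-1, of stem and progenitor cells and endothelium. Ly6a, Ly6c and Ly6e are interferon-induced in several cell types, and Ly6e is known for its effects on the entry of viruses into cells.

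The deposited values were log2 levels after robust multiarray averaging (RMA), with array medians between 4.83 and 4.86 and upper quartiles between 7.92 and 8.03. A level compares the same gene between arrays, and levels of different genes are not amounts that can be set against each other. No detection calls were given. The criterion of the methods asks for more than a 1.5-fold change together with p below 0.05 before adjustment, here taken from limma. By this criterion 3.13% of all genes were higher in CKD and 3.19% were lower, and 0.0103% of all genes, 2 of 19505, had an adjusted p under 0.05 from limma. The 3 Y-linked genes measured were uneven across the arrays: Uty was 4.48, 2.08 and 2.17 in sham replicates 1, 2 and 3, and 4.67, 4.29 and 7.97 in CKD replicates 1, 2 and 3. Eif2s3y ran from 1.24 to 4.24 in sham and from 4.02 to 7.90 in CKD, and Kdm5d from 1.89 to 3.67 and from 2.73 to 5.52. All 3 passed the criterion as higher in CKD, with overlapping groups, although the methods describe mice of this strain as male. They did not pass without sham replicate 2 or without sham replicate 3. A fit with their mean level as a covariate, added after the data were seen, is given where it moved a value. That mean is itself higher in CKD, so the covariate and the groups cannot be fully told apart. Sham replicate 1 also stood apart in myeloid genes, with the neutrophil granule gene Ngp at 4.44 against 8.42 and 8.22 in the other sham hearts.

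Of the 6 measured Ly6 genes, Ly6e was lower in CKD hearts by the criterion, none was higher and 5 did not pass, beside the 3.19% of all genes that were lower. The rule used this contrast, so nothing is read from that count. The methods' t-test did not place Ly6e past the criterion, nor did Ly6e reach an adjusted p under 0.05 in the main limma fit. Ly6e had a log2 level of 16.48, 17.44 and 17.32 in the 3 sham hearts. In the CKD hearts it was 16.21, 12.63 and 13.82. The highest CKD value lay just under the lowest sham value, so the groups did not overlap, while CKD replicates 2 and 3 lay far below all other hearts. Groups lay apart in this way, with CKD lower, for 6.71% of all genes, and with CKD higher for 6.93%.

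Sham hearts had a mean Ly6e level of 17.08 ± 0.52 (SD, n = 3 mice), and CKD hearts one of 14.22 ± 1.82 (SD, n = 3). The difference was −2.86 on the log2 scale (standard error 0.75 from limma, 95% confidence interval −4.55 to −1.17), a 7.26-fold lower level. Only 3 of the 19505 genes had a more negative difference. Measured against the sham mean, Ly6e was 1.83-fold lower in CKD replicate 1, 21.9-fold lower in CKD replicate 2 and 9.58-fold lower in CKD replicate 3. The CKD hearts thus differed among themselves by 3.58 log2 units, and 0.231% of genes, 45 in all, had a wider range in CKD. The sham hearts spanned 0.96 units. Without CKD replicate 1 the difference was −3.85, and without CKD replicate 2 it was −2.06. With the mean level of the Y-linked genes as a covariate it was −2.46. In RNA of heart tissue, fewer cells that make Ly6e and less Ly6e RNA per cell cannot be told apart.

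**Figure D1:**
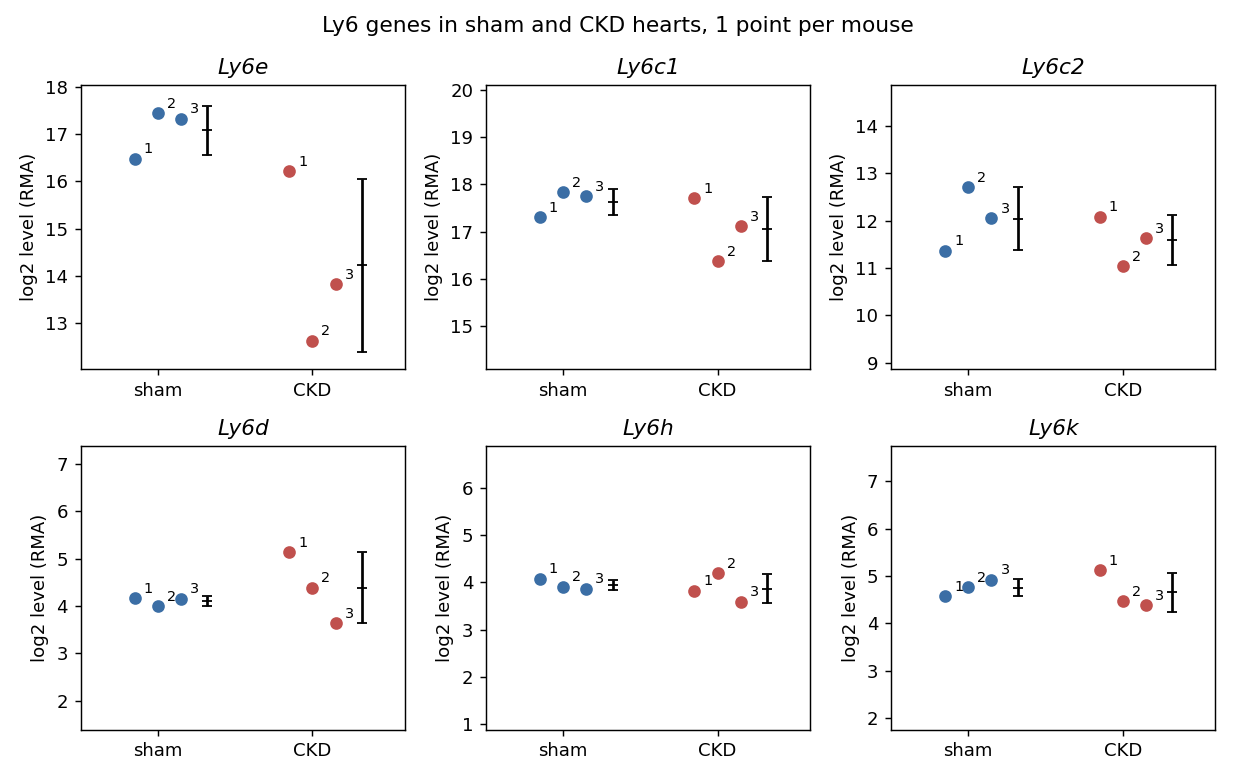
Log2 levels of the 6 measured Ly6 genes, 1 panel per gene with a vertical axis of equal length, 1 point per mouse numbered by replicate, sham in blue and CKD in red, with the mean and SD of each group beside the points. Ly6e falls from 16.48 or more in sham to 12.63 and 13.82 in CKD replicates 2 and 3, while the groups overlap for the other 5 genes.

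Ly6c1 and Ly6c2 are close copies, the first best known from the lining of small vessels and the second from inflammatory monocytes. Whether their probe sets share signal was not tested, and each value is therefore uncertain as a measure of 1 gene. Ly6c1 was 17.31, 17.83 and 17.75 in the sham hearts. It was 17.71, 16.37 and 17.11 in the CKD hearts. CKD replicates 2 and 3 lay below every sham heart, but CKD replicate 1 was within the sham range. The means were 17.63 ± 0.28 (SD, n = 3) and 17.06 ± 0.67 (SD, n = 3), a log2 difference of −0.57 (95% confidence interval −1.31 to 0.17), and Ly6c1 did not pass the criterion. The difference was −0.89 and past the criterion without CKD replicate 1, and −0.22 without CKD replicate 2.

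Ly6c2 was 11.36, 12.70 and 12.05 in sham hearts, so that sham replicate 1 lay low. The CKD hearts gave 12.08, 11.03 and 11.63. Again CKD replicate 2 was the lowest and CKD replicate 1 the highest of its group, and the groups overlapped. The log2 difference was −0.46 (95% confidence interval −1.29 to 0.38), and it moved with single arrays. Leaving out sham replicate 1 gave −0.80, past the criterion, and leaving out CKD replicate 1 gave −0.71. Leaving out sham replicate 2 gave −0.12, leaving out CKD replicate 2 gave −0.18, and the Y-linked covariate gave −0.19. Centred on their own means over the 6 arrays, Ly6c1 and Ly6c2 differed by a root mean square of 0.26 log2 units, the least of the 15 pairs of measured Ly6 genes. The distance from Ly6e, whose range was wider, was 1.34 for Ly6c1 and 1.43 for Ly6c2.

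The promoter windows of this pair are shown because both genes had the same order of levels within the CKD group. RefSeq windows, which reach from 250 bases before to 50 after a transcript start, were at hand for 2 of the 6 measured genes, Ly6c1 at chr15:75048788-75049087 and Ly6c2 at chr15:75111922-75112221, both on the minus strand of GRCm38.p6, the C57BL/6J assembly. Read from 5′ to 3′, the capitals mark the longest run of identical bases shared by both, 20 bases long.
Ly6c1: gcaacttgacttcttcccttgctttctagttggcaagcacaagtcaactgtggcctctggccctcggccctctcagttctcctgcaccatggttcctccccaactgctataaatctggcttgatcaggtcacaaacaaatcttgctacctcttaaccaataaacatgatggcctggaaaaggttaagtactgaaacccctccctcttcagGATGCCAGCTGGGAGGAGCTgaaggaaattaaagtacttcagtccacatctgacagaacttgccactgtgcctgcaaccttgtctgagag
Ly6c2: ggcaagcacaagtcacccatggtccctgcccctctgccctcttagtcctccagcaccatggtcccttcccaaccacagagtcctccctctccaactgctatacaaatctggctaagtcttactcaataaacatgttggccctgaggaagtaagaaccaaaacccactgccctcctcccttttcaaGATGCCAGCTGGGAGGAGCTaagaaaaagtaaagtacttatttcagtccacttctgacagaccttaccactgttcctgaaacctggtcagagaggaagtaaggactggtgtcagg
In a global alignment with free end gaps, 214 of 260 aligned bases were identical (82.3%), with gaps left out of the count. Each gene had a further window, not shown, from another transcript start. The other pairings of a Ly6c1 with a Ly6c2 window gave 82.3%, 89.4% and 91.5%. On either strand no window of these genes held GAAA followed by any 2 bases and again GAAA, the core of the interferon-stimulated response element. None held TTCNNNGAA, a STAT site. Of 32851 promoter windows of this length, 3.44% held the first motif and 8.30% the second. That these letters are missing says nothing of binding elsewhere.

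Ly6d, Ly6h and Ly6k lay near or below the array median of 4.83 to 4.86, low on the scale. Ly6d is known from early B cells and from stratified epithelium. Its sham levels were 4.16, 3.99 and 4.15, and its CKD levels were 5.13, 4.38 and 3.64. Although the sham hearts lay within 0.17 log2 units of each other, the CKD hearts lay on both sides of them, with replicate 1 highest and replicate 3 lowest. The log2 difference was 0.28 (95% confidence interval −0.47 to 1.04). It was −0.09 without CKD replicate 1, it was 0.66 and past the criterion without CKD replicate 3, and it was 0.75 and not past it with the Y-linked covariate.

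Ly6h, best known from the brain, was 4.08, 3.91 and 3.87 in sham hearts and 3.83, 4.19 and 3.59 in CKD hearts. Ly6k, best known from the testis, was 4.57, 4.77 and 4.92 in sham hearts and 5.13, 4.47 and 4.38 in CKD hearts. The groups overlapped for both genes. The log2 differences were −0.08 (95% confidence interval −0.56 to 0.39) for Ly6h and −0.09 (95% confidence interval −0.64 to 0.45) for Ly6k, and both signs turned without CKD replicate 3 (0.06 and 0.05). Over the 6 measured Ly6 genes the median difference was −0.28, with 5 negative values and 1 positive, beside a median of 0.00 over all genes. Leaving out sham replicate 2 moved this median to −0.11, leaving out sham replicate 1 to −0.46, leaving out CKD replicate 1 to −0.52, and the Y-linked covariate to −0.06.

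In the order of genes on chromosome 15, the Ly6 block from Psca to Gpihbp1 held 29 protein-coding genes, of which 20 were measured. Only Ly6e, whose contrast the choice of genes used, and its next neighbour Ly6i passed the criterion, both lower in CKD as were 3.19% of all genes, and the median log2 difference of the 20 was −0.01. Ly6i was 3.94, 4.77 and 4.73 in sham hearts and 3.76, 3.34 and 3.48 in CKD hearts, low levels that did not overlap. Its difference was −0.95 (standard error 0.26, adjusted p = 0.346 from limma), and it was −0.65 and no longer past the criterion with the Y-linked level as a covariate. On the other side of Ly6e, Ly6m differed by 0.12. Beyond Ly6m lie Cyp11b2 and Cyp11b1, the genes of the last steps of aldosterone and corticosterone synthesis, which differed by −0.39 and 0.14. No other measured gene of the block differed as much as Ly6e.

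**Figure D2:**
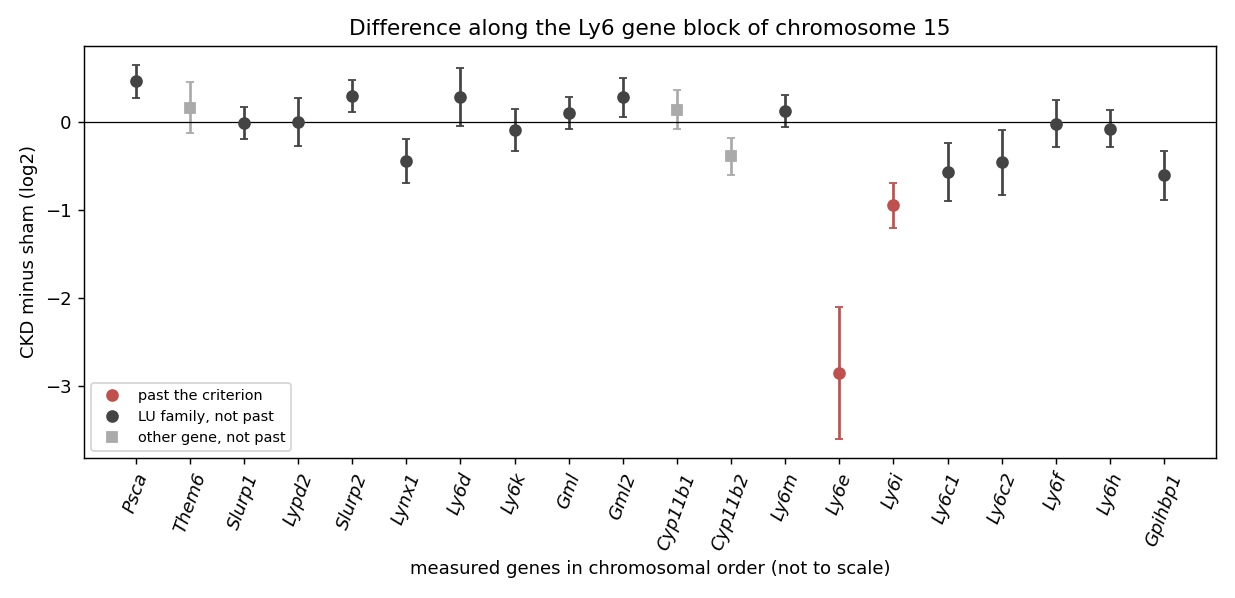
Log2 difference of CKD minus sham, with its standard error, for the 20 measured genes of the Ly6 block in their order on chromosome 15, circles for genes of the LU family, squares for others, red for those past the criterion. Ly6e at −2.86 and Ly6i at −0.95 stand below the rest, which lie between −0.61 and 0.46.

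Of 34 other measured genes of the LU family, 1 was lower in CKD, Ly6i, none was higher, and the median log2 difference was −0.01, beside 3.19% of all genes lower and 3.13% higher. The count of lower genes was 4 without sham replicate 1, 2 without any 1 CKD replicate and 0 with the Y-linked covariate, and 1 gene was higher when either sham replicate 1 or 2, or CKD replicate 1, was left out. Next in order of p stood Psca, an antigen of prostate and stomach lining, at 0.46 (standard error 0.19, adjusted p = 0.516 from limma), whose groups lay apart but whose fold was under 1.5, and Lypd1, known from the brain, at 0.72 (standard error 0.32, adjusted p = 0.547). With the 6 Ly6 genes the family counted 40 measured genes, of which 17 had positive and 23 negative differences, with a median of −0.02. In 7 of them the mean level lay above the upper quartile of every array, namely Ly6c1, Ly6c2, Ly6e, Lynx1, Gpihbp1, Cd59a and Cd59b. All 7 were negative, with a median of −0.57, beside −0.01 for the 4913 genes that bright. The other 33 had a median of 0.00. The 7 include Ly6 genes whose choice used this contrast, so the split is a description. Gpihbp1 and Cd59a are given here by array after their values were seen. Gpihbp1, which carries lipoprotein lipase to the capillary surface, was 11.35, 12.23 and 11.91 in sham and 11.31, 10.82 and 11.54 in CKD hearts (−0.61, standard error 0.28, adjusted p = 0.567). Cd59a, an inhibitor of the complement attack complex, was 13.44, 14.48 and 14.43 in sham and 14.21, 12.97 and 13.18 in CKD hearts (−0.66, standard error 0.38, adjusted p = 0.658). Among the CKD hearts both were lowest in replicate 2, as Ly6e was, whereas Gpihbp1 was highest in replicate 3 and Cd59a in replicate 1. Neither passed the criterion. Lynx1, at 9.77, 10.01 and 9.96 in CKD hearts, and Cd59b, at 9.30, 10.01 and 9.39, were instead highest in CKD replicate 2. Their differences were −0.44 and −0.37, also not past the criterion.

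The GPI anchor is built in the endoplasmic reticulum by the Pig enzymes and joined to the protein there. Of 29 measured genes of its synthesis, attachment and remodelling, 4 were higher in CKD and 2 were lower, beside 3.13% and 3.19% of all genes, and the median log2 difference was −0.15. The higher genes numbered 2 without sham replicate 3, without CKD replicate 3 or with the Y-linked covariate, which moved the median to −0.04, and the lower genes numbered 4 without CKD replicate 2. Pigv, a mannosyltransferase, was higher by 0.82 (standard error 0.19, adjusted p = 0.336 from limma). Pgap1, which removes a lipid from the inositol after attachment, was lower by the criterion (−0.74, standard error 0.19, adjusted p = 0.344), as was Pigs, a subunit of the transamidase that joins anchor and protein (−0.68, standard error 0.20, adjusted p = 0.379). The other higher genes were Pigf, Pign and Pigp, which were named after their values were seen.

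Of 42 measured interferon-induced genes, 4 were lower in CKD and none was higher, beside 3.19% and 3.13% of all genes, and the median log2 difference was −0.33. They were the antiviral synthetases Oas1a (−0.91, standard error 0.24, adjusted p = 0.344 from limma) and Oas2 (−0.96, standard error 0.33, adjusted p = 0.448), the chemokine Cxcl10 (−0.63, standard error 0.21, adjusted p = 0.443) and, named after its values were seen, the membrane protein Ifitm3 (−0.93). Oas2 was 4.49, 4.87 and 4.93 in sham and 4.46, 3.10 and 3.84 in CKD hearts, lowest in CKD replicate 2 as Ly6e was. Cxcl10 had this order too, at 3.17, 2.60 and 2.99 in CKD hearts against 3.43 to 3.65 in sham. Oas1a did not, at 4.03, 4.07 and 3.40 in CKD hearts against 4.51 to 4.89 in sham, with its lowest value in CKD replicate 3. The CKD levels of Cxcl10 lay under the lower quartile of every array, which was 3.38 to 3.47. With the dimmest 25% of genes left out, 3 genes of the list were lower. The mean level of the whole list lay between 7.25 and 7.36 in sham hearts and was 7.66, 6.56 and 6.95 in CKD replicates 1, 2 and 3. CKD replicate 1 therefore lay above all sham hearts in this list and the other CKD hearts below them. Without CKD replicate 1, 17 of the 42 genes were lower and the median was −0.58. Without CKD replicate 2, 2 genes were higher, 3 were lower and the median was −0.08. The part of this list in the Ly6e difference was not tested.

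Markers of monocytes, macrophages and neutrophils were read on the same arrays. The lists were not split by how much Ly6 protein a cell carries. Of 13 measured monocyte markers 6 were lower in CKD, beside 3.19% of all genes, and none was higher, with a median log2 difference of −0.79, and the mean level of the list was 6.96 to 8.31 in sham and 6.51 to 7.50 in CKD hearts. The 3 with the smallest p were the chemokine receptor Cx3cr1 (−0.79, adjusted p = 0.336 from limma), the nuclear receptor Nr4a1 (−0.83, adjusted p = 0.346) and the Fc receptor Fcgr1 (−1.06, adjusted p = 0.362). Leaving out sham replicate 1 gave 11 lower monocyte markers, and leaving out sham replicate 2, sham replicate 3, CKD replicate 2 or CKD replicate 3 gave 3 each. With the Y-linked covariate 2 were lower and the median was −0.43. Sham replicate 1, at a list mean of 6.96, was the lowest sham heart here. It was also the lowest sham heart for Ly6e, Ly6c1, Ly6c2 and Ly6k, but the highest for Ly6d and Ly6h. Of 11 macrophage markers 3 were lower, again beside 3.19% of all genes, namely Adgre1 (−1.05, adjusted p = 0.448), C1qb (−1.47, adjusted p = 0.474) and F13a1 (−1.27, adjusted p = 0.481), the last also in the monocyte list, with a median of −0.67 and list means of 8.20 to 9.79 in sham and 7.95 to 9.14 in CKD hearts. No macrophage marker was lower without sham replicate 2 or without CKD replicate 2, 1 was without sham replicate 3 or CKD replicate 3, 8 were without sham replicate 1 and 6 without CKD replicate 1. With the Y-linked covariate none was lower and the median was −0.16. None of 14 neutrophil markers passed, with a median of −0.33 and list means of 4.59 to 7.15 in sham and 4.95 to 6.83 in CKD hearts. Without sham replicate 1, 6 were lower and the median was −1.10, and without CKD replicate 1, 2 were lower and it was −0.78. The median was −0.10 without sham replicate 2 or sham replicate 3, and with the Y-linked covariate it was 0.33 with 2 markers higher. The neutrophil genes with the smallest p were Ngp (−2.16, standard error 1.08), Camp (−0.45) and Lcn2 (−1.77), all with overlapping groups.

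None of 16 endothelial markers passed the criterion, the median was −0.24, and the mean of the list was 9.90 to 10.12 in sham and 9.58 to 10.05 in CKD hearts. Without sham replicate 3 or without CKD replicate 3, 2 markers were lower, without CKD replicate 2, 1 was lower, and without sham replicate 1, 1 was higher. With the Y-linked covariate 4 were lower and the median was −0.42. The smallest p among them belonged to the tight junction gene Cldn5 (−0.55, adjusted p = 0.453 from limma), the VEGF receptor Kdr (−0.51) and Emcn (−0.45). The list mean was lowest in CKD replicate 2, at 9.58, as were Ly6e, Ly6c1 and Ly6c2. The same array was lowest for the monocyte (6.51), macrophage (7.95), interferon-induced (6.56), other LU (4.50) and cardiac muscle (17.83) lists. The remaining lists were lowest on other arrays. The part of monocytes, macrophages or endothelium in the Ly6 levels was not tested.

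Other cell types, among them those that Ly6d and Ly6h mark elsewhere, were read in the same way. The counts of each list stand beside 3.13% of all genes higher in CKD and 3.19% lower. Of 8 B cell markers none passed, with a median of 0.17 and list means of 3.06 to 3.42 over all arrays, below the array medians. Their smallest p were those of Cd79a (0.49), Cr2 (0.45) and Cd79b (0.34). Of 9 markers of keratinising epithelium none passed, with a median of −0.13, and the first in order of p were Perp (−0.42), Krt15 (−0.21) and Col17a1 (−0.23). Of 10 neuron markers Snap25 was higher (0.75), Uchl1 (−0.80) and Stmn2 (−0.90) were lower, and the median was 0.26. Without CKD replicate 2, 3 neuron markers were higher and 1 was lower, without CKD replicate 3 none was higher, and with the Y-linked covariate none was higher and the median was −0.04. Of 10 T cell markers 1 was higher, Cd28 (0.66), beside Cd5 (−0.42) and Cd2 (0.34), with a median of 0.22. No T cell marker was higher when either sham replicate 1 or 2, or CKD replicate 1, was left out. Without CKD replicate 3, 2 were higher, and with the Y-linked covariate 3 were, at a median of 0.72. Of 11 fibroblast markers Pi16 was lower (−0.62), beside Col1a1 (0.36) and Tcf21 (0.32), with a median of 0.09. No fibroblast marker was lower when either sham replicate 1 or 2, or CKD replicate 1 or 2, was left out, 2 were higher without CKD replicate 1, and with the Y-linked covariate 2 were lower. None of 12 cardiac muscle markers passed, with a median of −0.05, and the contractile genes Myl2 and Tnnt2 lay between 19.84 and 19.95 on every array, near the top of the measured range. The first in order of p were Csrp3 (−0.40), Mybpc3 (−0.42) and Myh6 (0.48). Of 11 fat cell markers Thrsp (0.96) and Car3 (1.98) were higher, Pnpla3 stood at 0.52, all 11 differences were positive, and the median was 0.66. The higher fat cell markers numbered from 1 to 6 with single arrays left out, 6 of them without CKD replicate 2, and none with the Y-linked covariate, at a median of 0.35.

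**Figure D3:**
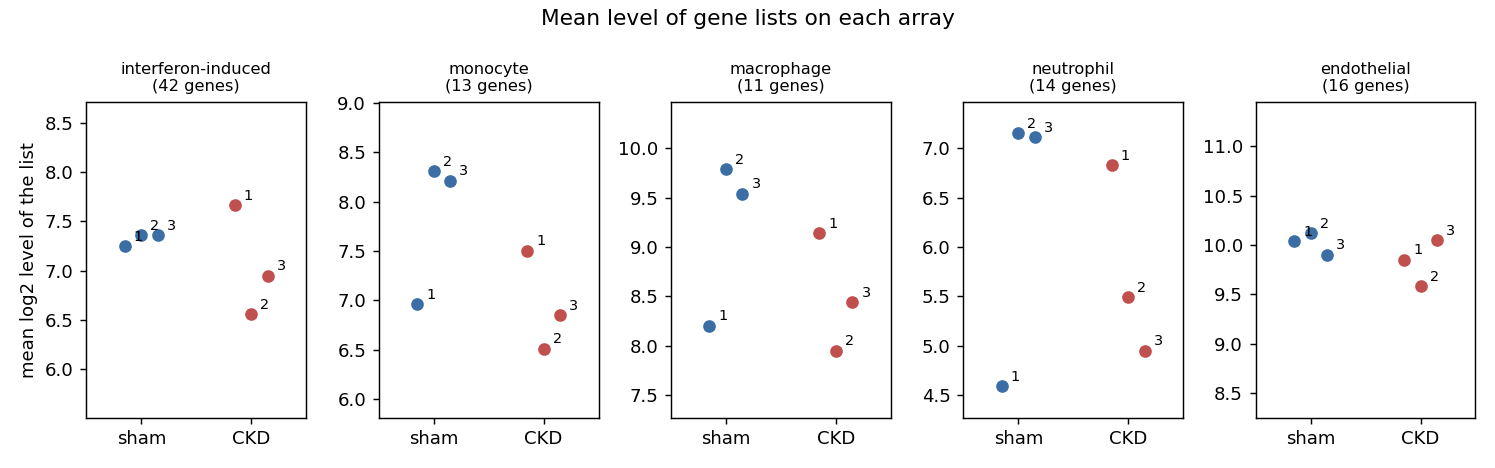
Mean log2 level of 5 gene lists on each array, 1 point per mouse numbered by replicate, sham in blue and CKD in red, with a vertical axis of equal length in every panel. In the interferon-induced list CKD replicate 2 is lowest (6.56) and CKD replicate 1 highest (7.66), while sham replicate 1 is the lowest sham heart in the 3 myeloid lists.

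The genes whose levels followed Ly6e most closely over the 6 arrays, after centring each on its own mean, were Pkd2l2 (root mean square difference 0.378 log2 units), 5830417I10Rik (0.525) and Cd300ld (0.574). Pkd2l2, a channel protein related to polycystin, was 9.62, 10.03 and 10.24 in sham and 9.08, 6.21 and 7.45 in CKD hearts. Like Ly6e it did not overlap between the groups and was lowest in CKD replicate 2. Cd300ld, a receptor of myeloid cells, was 7.22, 8.90 and 8.54 in sham and 8.41, 4.96 and 5.88 in CKD hearts, with CKD replicate 1 inside the sham range. 5830417I10Rik was 9.18, 10.95 and 11.19 in sham and 9.64, 7.07 and 7.59 in CKD hearts. These 3 were taken as the nearest of all genes, so their likeness is a description of these arrays.

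**Figure D4:**
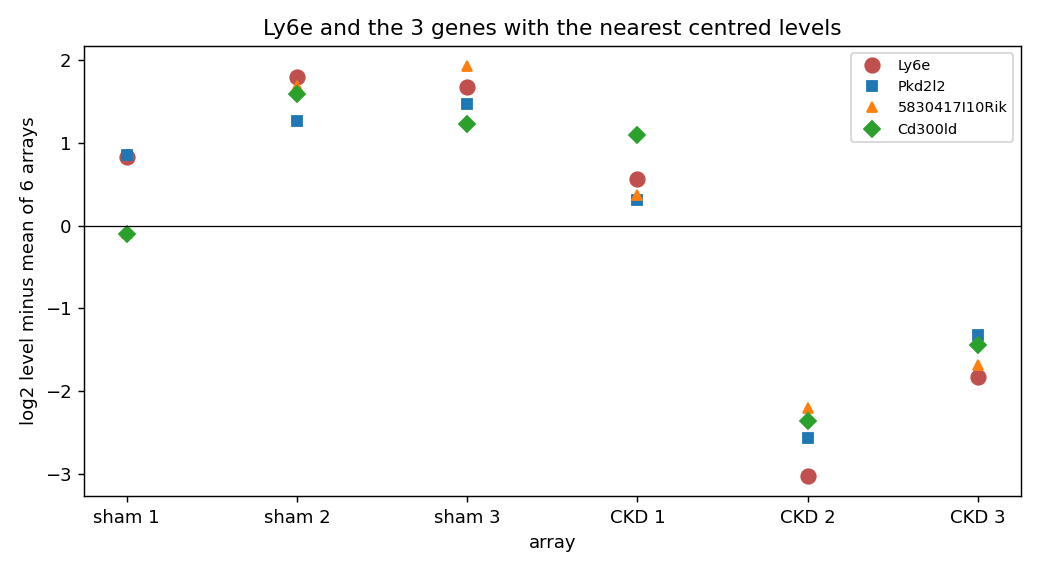
Log2 levels of Ly6e and its 3 nearest genes on each array after subtraction of each gene's mean over the 6 arrays. All 4 genes are lowest in CKD replicate 2 and next lowest in CKD replicate 3, and the nearest, Pkd2l2, differs from Ly6e by a root mean square of 0.378.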

How the data were processed

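Gene expression was measured in hearts of 3 sham and 3 CKD mice. For 22206 probe sets the authors deposited log2 levels made by robust multiarray averaging (software version not given in the sources used), which corrects the background, equalises the arrays and merges the probes of a set. The platform annotation paired 19572 probe sets with 1 symbol and left 2634 unnamed here. The brightest probe set was kept for the 55 genes with several, leaving 19505 genes. The 2 groups were fitted with limma 3.58.1 (lmFit, then eBayes; R 4.3.3) without covariates, and p was adjusted over all genes by Benjamini-Hochberg. Precision is limited by the number of arrays: with 3 mice against 3, an exact two-sided permutation test gives no p below 0.1. The fit was tested on simulated arrays with known changes, whose noise was drawn apart for each gene. That test does not cover shifts that many genes share on an array. Gene order and promoters came from RefSeq (GRCm38.p6), aligned with Biopython 1.88, and figures were drawn with matplotlib 3.10.9.

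The Ly6 genes and all other lists were chosen with earlier results of these data known. Named were all Ly6 genes, LU genes past the criterion with the next 2 in p, the 3 smallest p of each other list, the Y-linked genes and the 3 genes nearest to Ly6e. Alternatives covered the test, the normalization, probe sets, dim genes, thresholds, the replicate number as a block and each array left out. The Y-linked covariate, the mean level of 3 Y-linked genes, was added after seeing the data.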

Additional observations from a re-analysis of the deposited data

How the results depend on the processing

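Ly6e had a negative difference under every alternative run, between −3.85 and −2.06, and passed the criterion in all of them except the methods' t-test (−2.86) and an adjusted p under 0.05 without a fold limit (−2.86). With array weights the difference was −3.32, and with the Y-linked covariate it was −2.46. Its adjusted p from limma was 0.0498 with array weights and 0.0152 without CKD replicate 1. In the main fit and every other alternative it was over 0.05. Leaving out CKD replicate 1 removed the CKD heart nearest to the sham mean for Ly6e. The lower Ly6 genes numbered 0 with the methods' t-test and 0 at an adjusted p under 0.05, 2 with array weights (Ly6e and Ly6c1), and from 1 to 2 when single arrays were left out, with Ly6c2 added without sham replicate 1 and Ly6c1 without CKD replicate 1. The higher Ly6 genes ranged from 0 to 1 across arrays left out, the 1 being Ly6d without CKD replicate 3. The sign turned for Ly6d without CKD replicate 1 (−0.09), for Ly6h without CKD replicate 3 (0.06) or with the Y-linked covariate (0.08), and for Ly6k without CKD replicate 2 (0.00), without CKD replicate 3 (0.05) or with the covariate (0.17). With single arrays left out, Ly6d ranged from −0.09 to 0.66, Ly6c1 from −0.89 to −0.22, Ly6c2 from −0.80 to −0.12, Ly6h from −0.24 to 0.06 and Ly6k from −0.33 to 0.05. The median of the Ly6 genes ranged from −0.52 to −0.11. The cause was not tested.

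Over all genes 1233 passed the criterion, 610 higher and 623 lower. The count was 625 (307 and 318) with the methods' t-test, 2051 (1023 and 1028) with array weights, 285 (158 and 127) at a fold over 2 and 2 (2 and 0) at an adjusted p under 0.05. With single arrays left out it ranged from 982 to 2037, from 472 to 1091 higher and from 497 to 957 lower. Same-numbered sham and CKD arrays deviated from their group means with correlations of −0.184, −0.025 and −0.187, and no array correlated best with its own number. A figure legend of the paper speaks of 3 pairs of mice. With 3 arrays per group these correlations cannot decide whether the hearts were paired. With array weights 10 monocyte, 7 macrophage, 5 neutrophil and 8 interferon-induced genes were lower. With the methods' t-test the lower genes of these lists numbered 3, 0, 0 and 2. That test also left 2 GPI anchor genes higher, and no T cell, fibroblast, fat cell or Y-linked gene past the criterion. With the replicate block Ly6e stayed at −2.86 and past the criterion, and 1201 genes passed. With no detection calls, the lowest levels, such as those of Ly6h, may hold little signal above background.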
